A study of Mus musculus with 17 samples.

Results

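The genes described here encode the respiratory chain and ATP synthase of mitochondria. They were taken by symbol, as the Nduf, Sdh, Uqcr, Cox4 to Cox7 and Atp5 families, without pseudogene and Rik symbols. Of 82 matching symbols, 78 had a log2 value of 5 or more in some group and are the members, out of 38087 genes in the table. By symbol, 35 were assigned to complex I, 4 to complex II, 8 to complex III, 14 to complex IV and 17 to complex V. Of the last, Atp5sl and Atp5l2 are no subunits of that complex. Ndufa4 was counted in complex IV, where its protein is now placed. Its paralog Ndufa4l2 was counted there too, although it was listed among the symbols that are no subunit.

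Expression was measured by RNA sequencing of poly-A RNA in leukocytes sorted from the tibialis anterior, a shin muscle. The donors were male DBA/2J mice, 3 months old. Cardiotoxin, a snake venom peptide after which fibres die and the muscle regenerates, had been used to injure it. The 17 samples form 6 groups, all from injured muscle. Of these, 2 samples are neutrophils of day 1. The 5 macrophage groups, with 3 samples each, are Ly6C high cells taken on days 1, 2 and 4 and Ly6C low cells taken on days 2 and 4. No treatment other than the toxin, no transgene and no uninjured or blood group is named in the labels, and whether a sample is 1 animal or a pool is not given there. For each group the table gives a single number per gene, read as the authors' mean on the scale of log2 normalised reads. No SD and no test across samples can be had from it. Whether a difference is larger than the spread between mice is therefore unknown, and all comparisons below are of size. Unless another scale is named, levels are log2 normalised reads and differences are differences of these on the log2 scale, so that 1 is 2-fold.

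The respiratory chain moves electrons from NADH (through complex I) and from succinate (through complex II) to coenzyme Q, then through complex III and cytochrome c to complex IV, which reduces oxygen. Complexes I, III and IV pump protons, and complex V uses the gradient to make ATP. In macrophages the chain is known for a change of use with activation: inflammatory cells rely more on glycolysis and accumulate succinate and itaconate, while cells of the repair phase rely more on oxidative phosphorylation. The 13 subunits encoded by mitochondrial DNA are not analysed here.

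Several facts of the columns bear on what follows. A single read was worth 0.412 to 0.797 normalised units in the macrophage libraries. From this, the SE of a macrophage group mean by counting error alone was computed with reads taken as independent. It was up to 0.118 at a level of 5, 0.042 at 8 and 0.021 at 10. In the neutrophil column, the steps of the low values of 1 library held 2195 genes at even and 155 at odd numbers of reads, and those of the other library 323 and 219. Even numbers were also the more frequent in 12 of 15 macrophage libraries, the highest counts being 494 even and 315 odd. In all these counts each even number was set against the odd number above it, and single reads were left out. Where genes become fewer as reads rise, even numbers are then the more frequent without any pairing. The counts alone therefore cannot decide whether reads were counted in pairs. If reads were counted in pairs, the SE given above is too small. The neutrophil column was kept apart when groups were ranked. Markers of the labelled cells told the sorts apart only in part. Csf1r, the receptor for macrophage colony stimulating factor, lay between 13.31 and 14.71 in the 5 macrophage groups. S100a9 was at 15.49 in neutrophils against 9.64 in Ly6C high cells of day 1. The 6 macrophage markers compared differed between these 2 groups by a median of only 0.17. The neutrophil group also held Csf1r at 13.27 and Lyz2 at 16.61, close to the macrophage levels, while Ly6g was at 3.48 there and listed at 0 in all macrophage groups. Transcripts of stromal cells were present on day 4: 10 of 10 fibroblast markers reached a level of 5, and their summed level (log2 of the summed linear values) was 9.55 and 10.80 in Ly6C high cells of days 1 and 2 and 8.51 in Ly6C low cells of day 2, against 15.94 and 13.91 in Ly6C high and Ly6C low cells of day 4. The part of these transcripts in the day 4 values below was not tested. In bulk samples, fewer cells of a type and less RNA per cell cannot be told apart.

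Respiratory chain genes were expressed in every group and varied little between the macrophage groups. The median level of the 78 genes was 8.33 in neutrophils, 9.05, 9.17 and 9.07 in Ly6C high cells of days 1, 2 and 4, and 9.18 and 9.04 in Ly6C low cells of days 2 and 4. The range of a gene over the 5 macrophage groups had a median of 0.45, against 0.77 over all 13065 genes that reached a level of 5. The values over all genes for range, and those for the ranking of groups below, were not matched to the members by level. Only 4 of the 78 genes (5.13%) had a range of at least 1, against 37% of all genes, and 46 (59%) had a range under 0.5, against 26.6% of all genes. The 4 genes past that range were Ndufa4l2, Cox6a2, Atp5sl and Cox7a2l, described below. Of the 82 symbols, Cox6b2 (highest level 4.91), Atp5s (4.48), Cox4i2 (3.51) and Cox7b2 (0 in all groups) fell short of the minimum. Cox7a1 (5.20), Ndufb4 (6.46) and Cox6a2 (6.55) had the lowest highest levels among those kept.

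Among the macrophages, Ly6C low cells of day 2 stood highest and both day 4 groups lowest. Ly6C low cells of day 2 held the highest of the 5 values for 48 of 78 genes (61.5%), against 16.7% of all genes, and Ly6C low cells of day 4 held the lowest for 34 (43.6%), against 26.7% of all genes. Taken as deviations from each gene's own macrophage mean, the group medians were 0.16 in Ly6C low cells of day 2, 0.07 and 0.01 in Ly6C high cells of days 2 and 1, and -0.10 and -0.15 in Ly6C high and Ly6C low cells of day 4. Complexes I, III and V followed this order or differed from it only in the last places, complex IV had Ly6C high cells of day 1 above those of day 2, and complex II had Ly6C low cells of day 4 in the second place and Ly6C high cells of day 1 in the last.

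**Figure D1:**
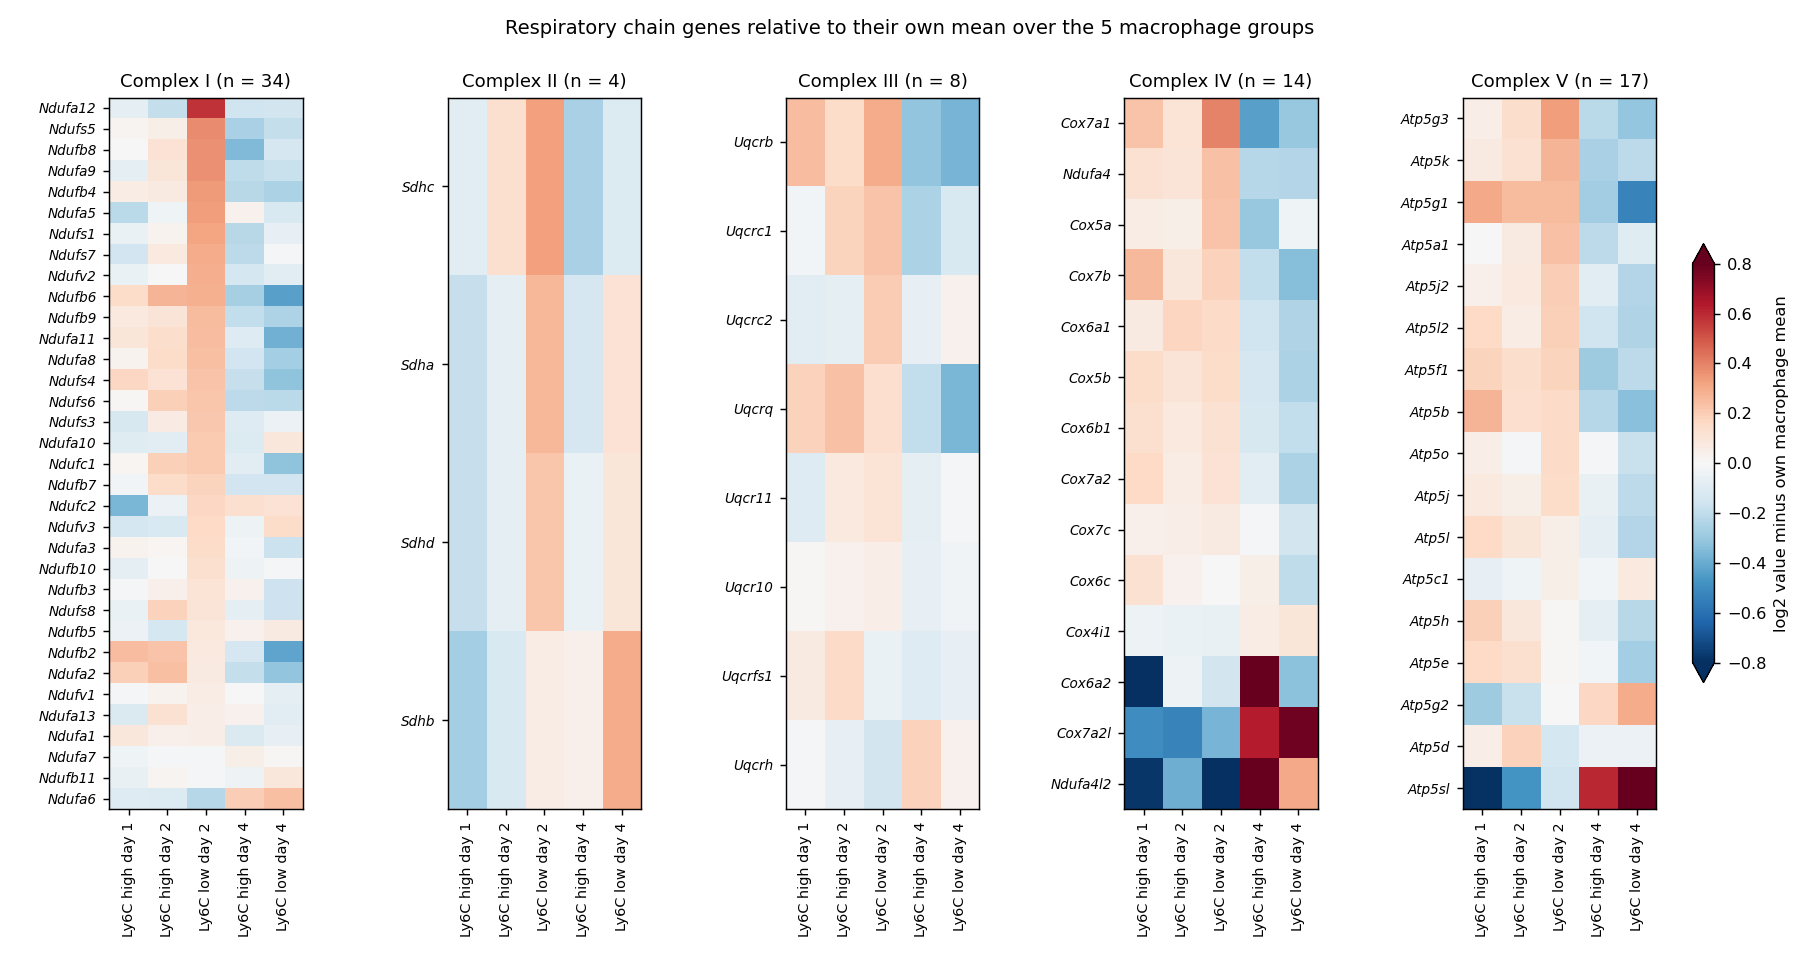
Level of each of 77 respiratory chain genes minus its own mean over the 5 macrophage groups (log2, colour, limits at -0.8 and 0.8), with 1 panel per complex, 1 row per gene and 1 column per macrophage group. The column of Ly6C low cells of day 2 is the reddest for 26 of the 34 complex I genes drawn, and Cox7a2l, Atp5sl, Cox6a2 and Ndufa4l2 show the strongest colours on day 4.

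Over the first 2 days the chain differed little. Ly6C high cells of day 2 differed from those of day 1 by a median of 0.03 over 76 genes compared, with 48 above 0 (48.8% of all genes lay above 0) and a range of -0.17 to 0.32. None was 2-fold higher or lower, against 1.41% and 1.1% of all genes. Complex II was above 0 in 4 of 4 genes (median 0.13) and the nuclear core of complex I in 7 of 7 (median 0.19). Complex IV was below 0 in 10 of 12 genes, at a median of -0.04 (8 of 13 under median-ratio rescaling), and complex V stood at -0.03, a sign that turned to 0.05 under quantile normalization.

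Between the 2 subsets on day 2, the Ly6C low cells had the higher values in most members. The median difference was 0.10 over 76 genes, with 60 above 0, against 47.4% of all genes. None was 2-fold apart in either direction, against 3.71% of all genes higher and 4.03% lower. Complex II (median 0.25, 4 of 4 above 0) and complex I (0.13, 29 of 35) held the higher medians, and complexes V (0.10, 13 of 17), IV (0.05, 9 of 12) and III (0.02, 5 of 8) the lower. Ndufa12, an accessory subunit of complex I, had the widest difference, 0.77, and Atp5d, a subunit of the ATP synthase stalk, the lowest, -0.32. Cell cycle genes differed in the same comparison by a median of 1.66, with 14 of 14 above 0 (Mcm6, a subunit of the replicative helicase, stood at 7.66 in Ly6C high and 9.69 in Ly6C low cells), and their part in the difference of the chain was not tested.

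From day 2 to day 4 the chain stood lower in both subsets. In Ly6C low cells the median difference was -0.32 over 76 genes, with 65 below 0 and 11 above, while 52% of all genes lay above 0. Protein-coding genes of like level lay nearer 0: those with a macrophage mean of 7 to under 9 had a median of -0.04 and those of 9 to under 11 a median of -0.00, against -0.31 and -0.32 for the members in these 2 ranges. Only Cox7a2l was at least 2-fold higher (9.23% of all genes were) and no member was 2-fold lower (2.16% of all genes were). Complexes I, IV and V had medians of -0.33, -0.34 and -0.33, and complexes II and III of -0.14 each.

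In Ly6C high cells the difference from day 2 to day 4 had a median of -0.17 over 77 genes, with 20 above 0, against 51% of all genes. Protein-coding genes with a macrophage mean of 7 to under 9 had a median of -0.03, and those of 9 to under 11 a median of -0.14 with 1846 of 2825 below 0, against -0.17 for the members in each range. In the upper range the members thus lay close to other genes of like level. Under median-ratio rescaling of the columns, 11 members were above 0. Atp5sl, Cox6a2, Ndufa4l2 and Cox7a2l were at least 2-fold higher (14.3% of all genes were), and none was 2-fold lower, against 2% of all genes. From day 1 to day 4, a comparison that shares its day 4 column with the last, the median was -0.12 over 78 genes with 26 above 0 (50.5% of all genes), the same 4 genes were at least 2-fold higher (17.6% of all genes) and none was 2-fold lower (3.97% of all genes).

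On day 4 the subsets lay close together. The median difference of Ly6C low from Ly6C high cells was -0.00 over 77 genes, with 36 above 0 (47.2% of all genes). No member was 2-fold higher, against 2.44% of all genes, and Cox6a2 and Ndufa4l2 were at least 2-fold lower, against 8.93% of all genes. The subset difference on day 4 minus that on day 2 had a median of -0.11, and 64 of 78 genes (82.1%) were below 0, against 51.7% of all genes. That contrast uses the column of Ly6C low cells of day 2. So do the subset difference on day 2, the Ly6C low difference from day 2 to day 4 and the ranking of groups above. A shift of that column alone would move all of these, so they are not separate observations. Complex II differed from the other complexes between the subsets on day 4. Its 4 of 4 genes were higher in Ly6C low cells, at a median of 0.20, under the main values and under both rescalings. The other complexes had medians of -0.12 to 0.04, though the core and Rieske genes of complex III were above 0 in 3 of 3 (median 0.10). Outside the complexes, coenzyme Q synthesis (0.22, 8 of 12 above 0) and carriers and channels (0.28, 7 of 11) lay on the same side.

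**Figure D2:**
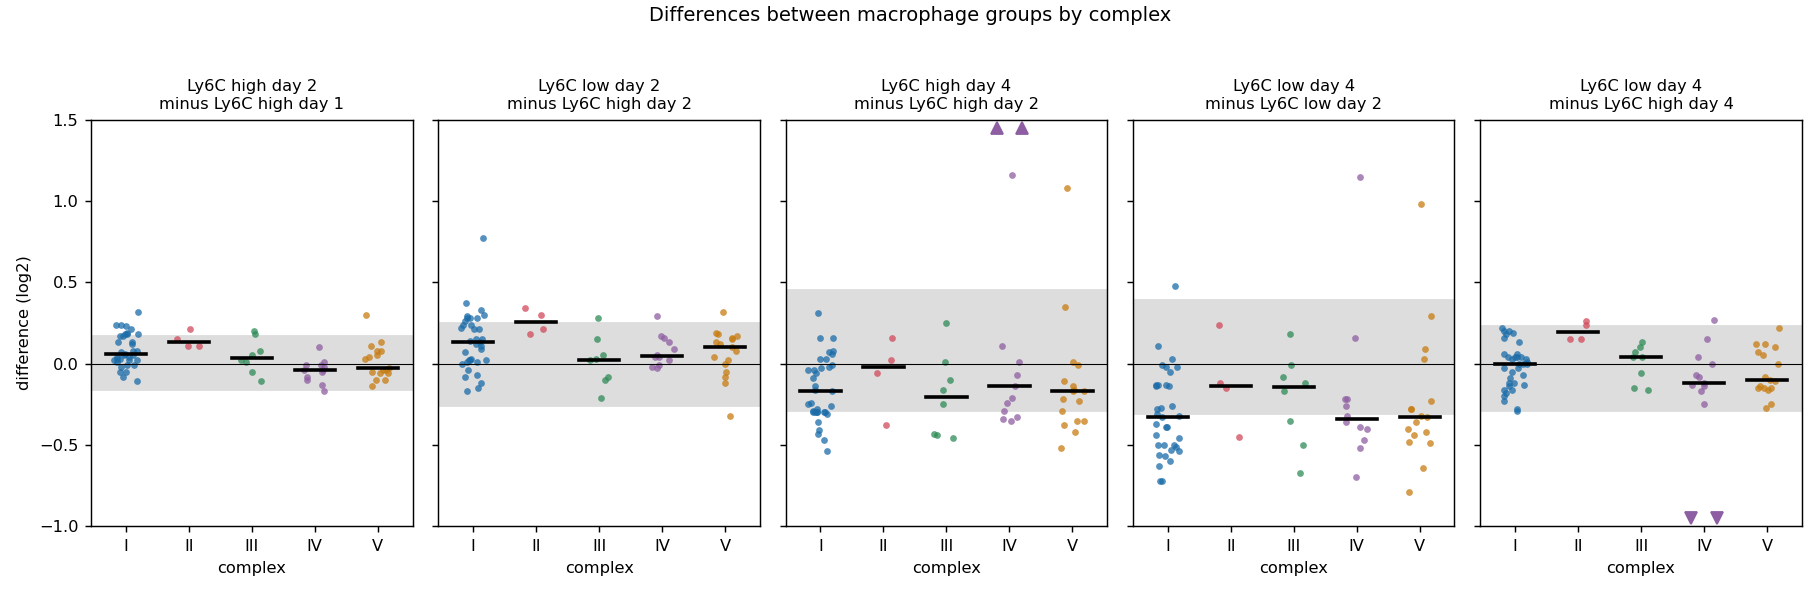
Differences between 2 macrophage groups (log2, vertical axis) for each gene, by complex, with 1 panel per comparison. Points are genes, black bars are the medians of a complex, grey bands run from the first to the third quartile of all genes compared, and triangles mark Cox6a2 and Ndufa4l2 beyond the axis. The medians of complexes I, IV and V lie near -0.33 in Ly6C low cells between days 2 and 4.

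Complex I takes electrons from NADH. Its 7 nuclear core subunits carry the flavin site (Ndufv1, with Ndufv2 beside it), the iron-sulphur centres (Ndufs1, Ndufs7, Ndufs8) and the quinone pocket (Ndufs7). Values are given in the order neutrophils, Ly6C high days 1 and 2, Ly6C low day 2, Ly6C high day 4, Ly6C low day 4. Ndufs1 stood at 9.25, 9.36, 9.44, 9.73, 9.19 and 9.35, and Ndufv2 at 8.81, 9.15, 9.20, 9.49, 9.06 and 9.11. Both were highest in Ly6C low cells of day 2, from which those of day 4 differed by -0.37 and -0.39.

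Ndufs3 stood at 7.16, 7.41, 7.60, 7.75, 7.43 and 7.49, and Ndufs7 at 8.21, 8.54, 8.77, 8.99, 8.48 and 8.68. Both were highest in Ly6C low cells of day 2. Ndufs8 stood at 8.34, 9.05, 9.29, 9.21, 9.03 and 8.94, and Ndufv1 at 8.47, 9.18, 9.22, 9.25, 9.19 and 9.12, the latter within 0.13 over the macrophages. All 7 core subunits were lower in Ly6C low cells of day 4 than of day 2 (median -0.27), and 6 of 7 were higher in Ly6C low than Ly6C high cells on day 2 (median 0.21).

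The 28 accessory subunits, which surround the core and serve its assembly and stability, had a median of -0.41 between days 2 and 4 in Ly6C low cells, with 25 below 0. Ndufb2 had the lowest difference of the complex between Ly6C high cells of day 1 and Ly6C low cells of day 4, -0.68, with levels of 7.02, 7.95, 7.93, 7.78, 7.57 and 7.28. Its values stepped down at every later macrophage group. Ndufc2 had the highest, 0.48, with levels of 7.46, 8.33, 8.65, 8.86, 8.82 and 8.81, and stayed near its day 2 level on day 4. Ndufa12 stood at 6.33, 5.89, 5.78, 6.55, 5.81 and 5.82, so that its higher value belonged to Ly6C low cells of day 2 alone among the macrophages. Ndufa6, an accessory subunit of the LYR family, ran the other way from most, at 8.87, 8.86 and 8.74 in the first 3 macrophage groups and 9.17 and 9.21 on day 4.

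Complex II, or succinate dehydrogenase, is shared by the respiratory chain and the TCA cycle and is encoded in the nucleus alone. Sdha, the flavoprotein that oxidises succinate, stood at 10.75, 10.80, 10.91, 11.25, 10.85 and 11.10. Sdhb, the iron-sulphur subunit, stood at 9.63, 9.94, 10.09, 10.27, 10.25 and 10.51, and was the member of the complex that was higher on day 4 than on day 2 in Ly6C low cells (0.24). The others were lower there.

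The membrane anchor Sdhc stood at 9.36, 9.62, 9.84, 10.04, 9.45 and 9.60, and the anchor Sdhd at 9.18, 9.63, 9.74, 10.04, 9.76 and 9.91. Within each day, all 4 genes were higher in Ly6C low than in Ly6C high cells, by 0.18 to 0.34 on day 2 and by 0.15 to 0.26 on day 4. The gene Irg1, whose enzyme makes itaconate, an inhibitor of succinate dehydrogenase, stood at 15.97, 10.86, 9.79, 10.18, 9.12 and 7.71, and was highest in neutrophils and lowest in Ly6C low cells of day 4.

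The promoter windows of Sdha, Sdhb and Sdhd each hold the letters GCNTGCGC, 1 side of the palindrome bound by nuclear respiratory factor 1 (NRF1), a regulator of nuclear genes for mitochondria. No window was matched for Sdhc. The windows, from 250 bases before to 50 after the start, are RefSeq's, on GRCm38.p6. The 5 sites are shown because complex II is the complex in which all matched promoters carry the motif; each is written 5′ to 3′ on the gene's strand, with the motif, or its reverse complement, in capitals, and the place of its first base relative to the start.
Sdha, -98, chr13:74350320-74350349, minus strand: gcgtttacaggGCGCAGGCgcaccaccact
Sdha, -55, chr13:74350277-74350306, minus strand: aggggcgtgttGCGCAGGCgcagaatcttc
Sdha, -10, chr13:74350232-74350261, minus strand: cgcgactcggtGCGCAAGCgcagtctgtcg
Sdhb, -54, chr4:140961206-140961235, plus strand: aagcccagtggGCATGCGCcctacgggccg
Sdhd, -79, chr9:50603910-50603939, minus strand: ttcgctggggtGCGCACGCgcggtggcagc

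Complex III passes electrons from coenzyme Q to cytochrome c. Its Rieske iron-sulphur protein Uqcrfs1 stood at 8.75, 9.84, 9.92, 9.71, 9.66 and 9.70, and cytochrome c1 (Cyc1, outside the symbol families) at 8.65, 9.83, 9.97, 10.06, 9.45 and 9.48. Both were over 2-fold lower in neutrophils than in Ly6C high cells of day 1. The core proteins Uqcrc1 (10.70, 10.90, 10.95, 10.47 and 10.60 in the macrophages) and Uqcrc2 (9.93, 9.94, 10.22, 9.95 and 10.05) were highest in Ly6C low cells of day 2.

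Uqcrc2 had the highest difference of the complex between Ly6C high cells of day 1 and Ly6C low cells of day 4, 0.13, and Uqcrb, a small subunit, the lowest, -0.62. Uqcrb stood at 7.29, 8.43, 8.33, 8.48, 7.87 and 7.81, so that its step lay between days 2 and 4 in both subsets. Uqcrh, the hinge protein, was the gene of complex III that was higher on day 4 than on day 2 in both subsets (0.25 and 0.18). The other subunits of complex III lay within 0.67 over the macrophages.

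Complex IV, cytochrome c oxidase, has several subunits with tissue-specific isoforms. Per kilobase of the longest transcript, Cox6a1, Cox7a2 and Ndufa4 had higher levels than Cox6a2, Cox7a1 and Ndufa4l2 in all 6 groups. Cox4i1 stood at 10.51, 11.47, 11.46, 11.45, 11.57 and 11.61, and was among the few members highest in Ly6C low cells of day 4. Cox4i2, the isoform of lung and hypoxic cells, did not pass 3.51. Cox6a1 stood at 9.77, 10.50, 10.60, 10.58, 10.27 and 10.19, and Cox6b1 at 9.94, 10.63, 10.58, 10.62, 10.37 and 10.30. Both were lower on day 4.

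Cox7a2, the common form of subunit 7a, stood at 8.85, 9.74, 9.64, 9.70, 9.50 and 9.33, and Cox7a1, the heart and muscle form, at 3.86, 5.03, 4.91, 5.20, 4.37 and 4.50. Per kilobase of the longest transcript, the level of Cox7a2 was 10.34 and that of Cox7a1 6.08 in Ly6C high cells of day 1. Cox7b stood at 9.19, 9.88, 9.71, 9.80, 9.42 and 9.28, and had the lowest difference of the complex between Ly6C high cells of day 1 and Ly6C low cells of day 4, -0.60. Ndufa4 stood at 9.14, 10.14, 10.12, 10.25, 9.79 and 9.78, lower on day 4 in both subsets. Cox5a, which binds near the matrix face of the enzyme, stood at 9.49, 10.54, 10.53, 10.71, 10.18 and 10.45.

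Among the muscle forms of complex IV, Cox7a1 was lower on day 4 than on day 2 in both subsets, Cox8b, the muscle form of subunit 8, was at most 0.52 in any group, and Cox6a2 is described below. Transcripts of muscle fibres were present on day 4: of 15 markers 6 reached a level of 5. Their summed level was 7.57 in neutrophils of day 1 and 6.50 to 6.84 in the macrophages of days 1 and 2. On day 4 it was 8.01 in Ly6C high cells and 8.94 in Ly6C low cells, where Acta1, skeletal muscle actin, stood at 6.88.

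In complex V, the F1 part, which holds the catalytic sites, is built from Atp5a1, Atp5b, Atp5c1, Atp5d and Atp5e. Atp5b, the catalytic beta subunit, stood at 12.46, 13.27, 13.13, 13.15, 12.77 and 12.66, and Atp5a1, the alpha subunit, at 12.10, 12.76, 12.83, 12.99, 12.55 and 12.66. Both were lower on day 4 than on day 2 in each subset. Atp5c1, the gamma subunit of the rotor, stood at 9.99, 10.61, 10.64, 10.72, 10.65 and 10.75, within 0.14 over the macrophages. Atp5d stood at 9.46, 10.42, 10.55, 10.23, 10.32 and 10.32, and Atp5e at 9.34, 10.51, 10.48, 10.36, 10.33 and 10.08. Neither was highest in Ly6C low cells of day 2.

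The c-ring, which turns with proton flow, is made of the same mature protein from 3 genes, and these differed in course. Atp5g1 stood at 7.49, 8.36, 8.31, 8.31, 7.78 and 7.52, and Atp5g3 at 9.99, 10.96, 11.05, 11.24, 10.69 and 10.60. Their differences between days 2 and 4 in Ly6C low cells were -0.79 and -0.64. Atp5g2 stood at 3.39, 7.44, 7.55, 7.73, 7.89 and 8.02, and its difference there was 0.29. How the authors' counting assigned reads that fit more than 1 gene is not known, and the levels are uncertain to that extent. The 4 peripheral stalk genes Atp5f1, Atp5h, Atp5j and Atp5o were all lower on day 4 than on day 2 in both subsets, at medians of -0.34 in Ly6C low and -0.14 in Ly6C high cells.

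The 4 genes with a range of at least 1 did not share this course. Cox7a2l (ENSMUSG00000024248, chr17:83501918-83517330 on GRCm38) encodes a relative of Cox7a2 that joins complexes III and IV into supercomplexes. Its level was 8.15 in neutrophils, 8.88 and 8.84 in the Ly6C high groups of days 1 and 2, and 10.15 in Ly6C low cells of day 4. Its difference between days 2 and 4 was 1.16 in Ly6C high and 1.15 in Ly6C low cells, while the Ly6C low cells exceeded the Ly6C high cells by 0.16 on day 2 and 0.15 on day 4. Both day 4 values lie above all earlier ones. The size held under the 2 rescalings, at 1.08 and 1.21 in Ly6C high and 1.07 and 1.18 in Ly6C low cells.

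Atp5sl (ENSMUSG00000057229, chr7:25619414-25625551), named Dmac2 in the annotation, encodes an assembly factor of complex I and no part of ATP synthase. It stood at 6.15, 5.99, 6.30, 6.62, 7.38 and 7.60, with day 4 above the earlier groups. Its difference between days 2 and 4 in Ly6C high cells, 1.08, was 1.00 under median-ratio rescaling and 0.78 under quantile normalization, the latter short of 2-fold. Of 44 other assembly factors listed, 33 were in the table and 30 were compared between days 2 and 4 in Ly6C low cells, with 26 below 0 and a median of -0.36. Surf1, an assembly factor of complex IV, was higher there, at 7.32 on day 2 and 8.10 on day 4, and Cox11, a copper chaperone of the same complex, lower, at 5.30 and 4.35.

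Cox6a2 (ENSMUSG00000030785, chr7:128205435-128206387), the heart and muscle form of subunit 6a, stood at 1.65, 4.02, 4.99, 4.88, 6.55 and 4.70. Ly6C high cells of day 4 stood apart from the other groups. Per kilobase of the longest transcript its level there was 7.10, against 10.96 for Cox6a1. The 6 plasmacytoid dendritic cell markers, chosen after these values were seen, had a summed level of 11.75 in Ly6C high cells of day 4, 9.47 to 10.22 in the other macrophages and 9.58 in neutrophils; among them Siglech stood at 4.84, 6.65, 7.03, 3.31, 9.51 and 3.99. The markers were lower in Ly6C low than in Ly6C high cells on day 2 (median -3.53 over the 4 compared), while Cox6a2 differed there by -0.11. Endothelial markers were also highest in Ly6C high cells of day 4, at a summed level of 12.56 against 9.14 to 10.13 in the other macrophages. Of these markers, 10 of 10 were at least 2-fold above Ly6C high cells of day 2. Fibroblast markers, whose summed levels are given above, were highest in the same group in 9 of 10 cases. The part of any of these cell types in the level of Cox6a2 was not tested.

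Ndufa4l2 (ENSMUSG00000040280, chr10:127514967-127517154), a paralog of Ndufa4 induced by hypoxia, stood at 0.47, 2.44, 2.83, 0.51, 6.79 and 3.52. It was highest in Ly6C high cells of day 4 and lowest, near 0, in neutrophils and Ly6C low cells of day 2. Pericyte markers, of which 6 of 7 reached a level of 5, had a summed level of 11.75 in Ly6C high cells of day 4 against 8.67 to 9.67 in the other macrophages. Rgs5, a pericyte marker, stood at 4.81, 8.01, 7.61, 5.46, 10.98 and 7.29, and Abcc9 at 1.37, 4.67, 4.39, 1.34, 7.40 and 3.69. Of 7 pericyte markers, 6 were highest in Ly6C high cells of day 4 and 6 lowest, among the macrophages, in Ly6C low cells of day 2, as was Ndufa4l2. The marker Cspg4 was not, at 6.62, 4.42, 6.30, 8.44, 7.54 and 8.63, and the summed level of the list was 8.72 in Ly6C low and 8.67 in Ly6C high cells of day 2. The endothelial markers described for Cox6a2 also peaked with Ndufa4l2, 9 of 10 being highest in Ly6C high cells of day 4. Fibroblast markers had the same order. Of 10, 9 were highest in Ly6C high cells of day 4 and 8 lowest, among the macrophages, in Ly6C low cells of day 2. The part of pericyte, endothelial or fibroblast RNA in the level of Ndufa4l2 was not tested.

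**Figure D3:**
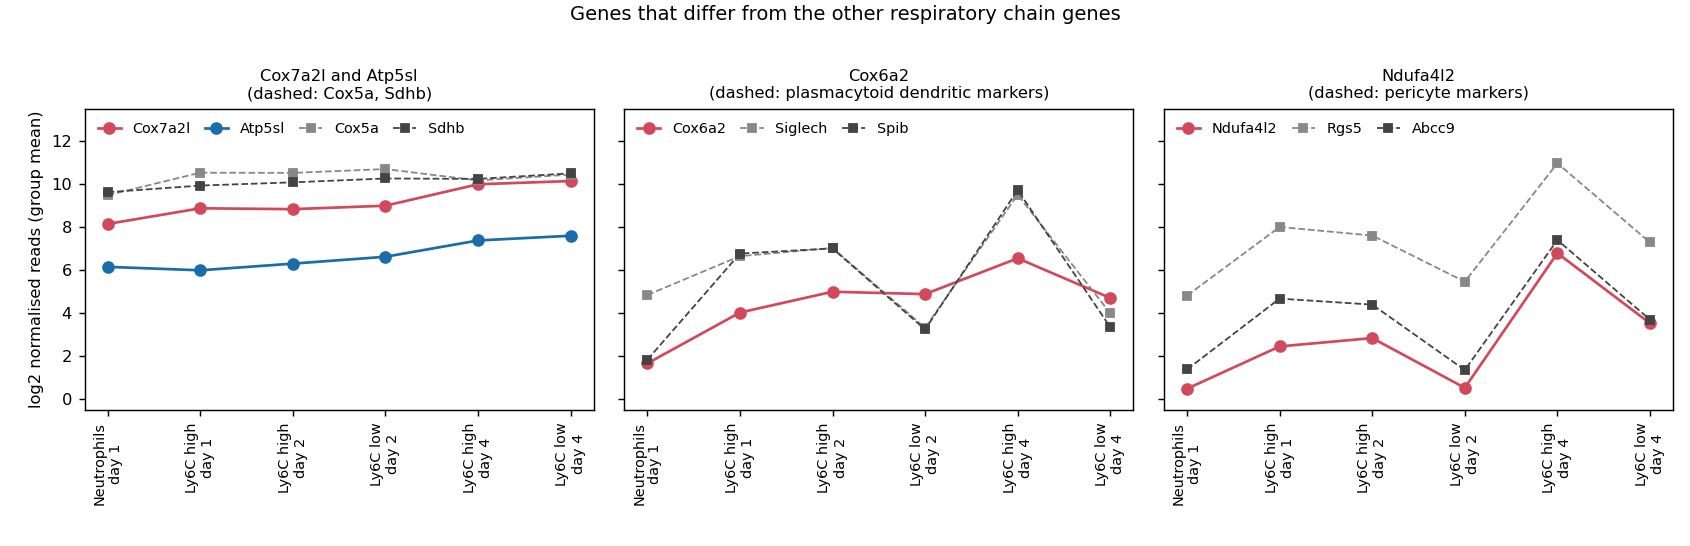
Levels (log2 normalised reads, group means) in the 6 groups for Cox7a2l and Atp5sl with Cox5a and Sdhb (left), Cox6a2 with the plasmacytoid dendritic cell markers Siglech and Spib (middle) and Ndufa4l2 with the pericyte markers Rgs5 and Abcc9 (right). Cox7a2l and Atp5sl are higher in both day 4 groups, while Cox6a2 and Ndufa4l2 peak in Ly6C high cells of day 4 at 6.55 and 6.79.

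Other nuclear genes for mitochondria were compared in the same way. Subunits outside the symbol families had a median of -0.43 between days 2 and 4 in Ly6C low cells, with 7 of 7 below 0, and cytochrome c (Cycs) was the furthest, at 8.69 and 7.61. Mitochondrial ribosomal proteins, which translate the subunits encoded in the organelle, had a median of -0.47, with 72 of 76 below 0. The TCA cycle and pyruvate dehydrogenase list stood at -0.36 (18 of 20 below 0) and the protein import list at -0.43 (22 of 23 below 0). Mdh2, malate dehydrogenase, stood at 11.35 in Ly6C low cells of day 2 and 10.57 in those of day 4, and Tomm40, the outer membrane import pore, at 9.47 and 8.43. Coenzyme Q synthesis stood at -0.13 (7 of 12 below 0) and carriers and channels at -0.04 (8 of 11 below 0).

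Among gene sets outside the mitochondrion, proteasome subunits had a median of -0.60 in the same comparison, with 35 of 37 below 0. Cytosolic ribosomal proteins stood at 0.14, with 67 of 77 above 0. Between the subsets on day 2, the mitochondrial ribosome (0.17, 63 of 76 above 0), assembly factors (0.21, 26 of 31) and TCA cycle (0.13, 15 of 20) lay on the same side as the chain, and cytosolic ribosomal proteins (-0.17, 73 of 77 below 0) on the other.

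The known regulators of mitochondrial biogenesis had no common direction. Their median between days 2 and 4 in Ly6C low cells was 0.13, with 9 of 16 above 0, and turned to -0.02 under quantile normalization. Ppargc1b, a coactivator of oxidative genes, stood at 3.72, 2.85, 3.63, 4.47, 4.42 and 5.14, and was higher in Ly6C low than in Ly6C high cells on each day. On day 2 both values of Ppargc1b were under the minimum level of 5 used for comparisons. Ppargc1a, its relative, did not pass 1.86. Nrf1 itself stood at 8.59, 8.76, 8.67, 8.23, 8.42 and 8.21, Tfam, which packages mitochondrial DNA, at 6.79, 6.78, 6.70, 6.86, 7.09 and 7.19, and Esrra at 8.12, 7.76, 7.92, 8.04, 7.73 and 8.19. None of these 3 differed by 2-fold between any of the groups.

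Carriers of the inner membrane differed among themselves. Slc25a10, the dicarboxylate carrier that exchanges succinate and malate, stood at 7.38, 6.57, 7.27, 8.38, 7.96 and 8.87, higher in Ly6C low than in Ly6C high cells by 1.11 on day 2 and 0.90 on day 4. Slc25a4, an ADP/ATP carrier, stood at 9.19, 9.29, 9.60, 10.22, 10.27 and 10.31, and its more abundant relative Slc25a5 at 10.41, 11.99, 11.86, 11.74, 11.39 and 11.37. In Ly6C high cells of day 4 against day 1, Slc25a4 was the higher and Slc25a5 the lower. Gpd2, which feeds electrons from glycerol 3-phosphate to coenzyme Q, stood at 10.82 in Ly6C high and 9.66 in Ly6C low cells on day 2, a difference of -1.15.

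**Figure D4:**
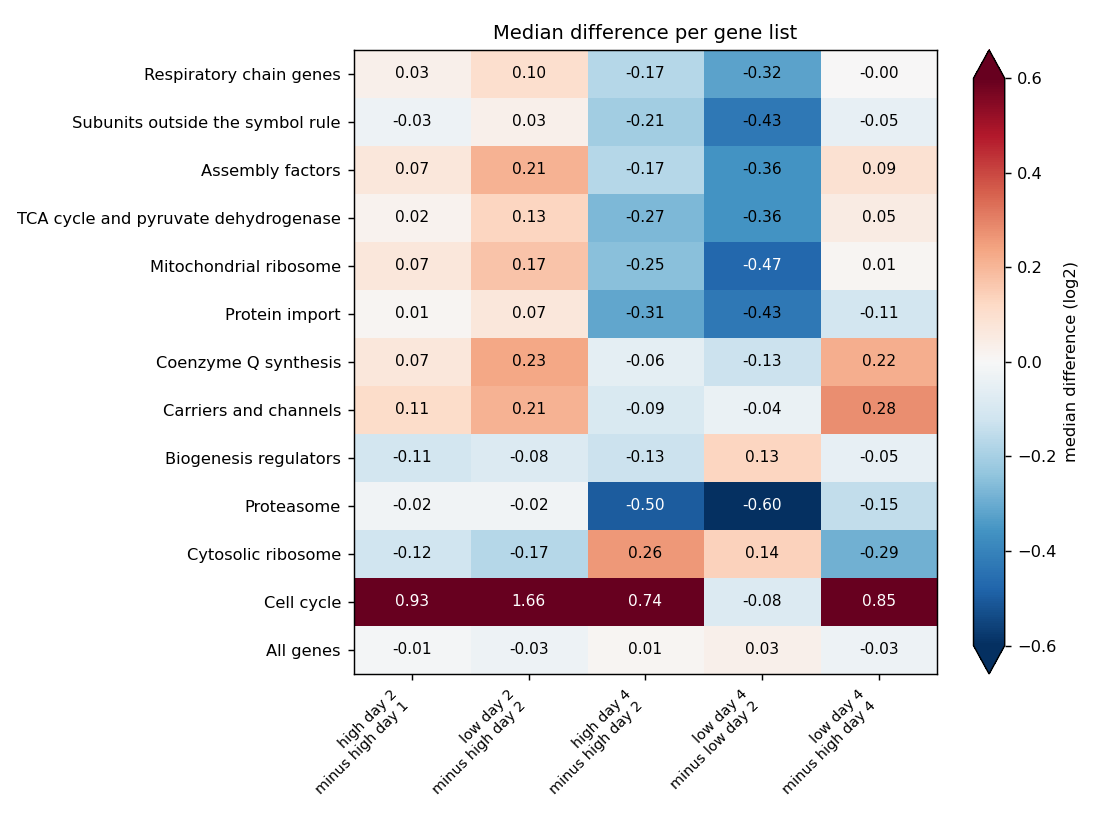
Median difference (log2, colour and printed number) of 13 sets of genes (rows) in 5 comparisons between macrophage groups (columns). Respiratory chain genes, mitochondrial ribosome, TCA cycle, protein import and proteasome are all negative between days 2 and 4 in Ly6C low cells (-0.32 to -0.60), while all genes stand at 0.03.

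Macrophages of day 1 exceeded neutrophils of the same day in nearly every member. The median difference was 0.69 over 76 genes, with 73 above 0, against 53.3% of all genes, and was 0.54 under quantile normalization. At least 2-fold higher were 15 members, against 16.6% of all genes, so that this count is near the background, and none was 2-fold lower, against 16.1% of all genes. Ndufa12, Atp5sl and Cox5b were the 3 lower ones. The order of the complexes was IV (0.92), III (0.79), V (0.68), I (0.57) and II (0.28). Median-ratio rescaling shifts all genes of a column by the same amount and so cannot test this order. Sdha differed by 0.04, less than the shift under either rescaling.

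The widest differences were those of Atp5g2, at 4.04, and Atp5l2 (3.68 in neutrophils, 7.34 in Ly6C high cells of day 1), at 3.65. Atp5l2 is annotated as a processed pseudogene of Atp5l and codes for no known subunit. Atp5l itself stood at 6.05 and 8.40, and the excluded Atp5l-ps1 at 3.57 and 7.34. Over all 1031 processed pseudogenes compared, the median difference was 2.27, with 970 above 0. The part of gene copies in the differences of the members was not tested. After Atp5l, the next members were Ndufb4 (4.44 and 6.18), Cox7a1 (3.86 and 5.03), Atp5e (9.34 and 10.51), Ndufs4 (7.72 and 8.86) and Uqcrb (7.29 and 8.43).

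Transcript length moved with this comparison over all genes and less over the members. Protein-coding genes with a longest transcript under 1000 bases had a median of 0.59, and those of at least 1000 bases of -0.03. Members stood at 0.73 and 0.65 in the same 2 classes, so that the 41 longer members were above their length class. Over 10204 protein-coding genes Spearman's rho between length and difference was -0.28, and over the 76 members it was -0.16, each a description across genes of the same 2 columns. Cytosolic ribosomal proteins, most of them short, had a median of 1.21. The part in these differences of the even numbers of reads in 1 neutrophil library was not tested, and the levels of macrophage genes in the neutrophil sort are given above.

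**Figure D5:**
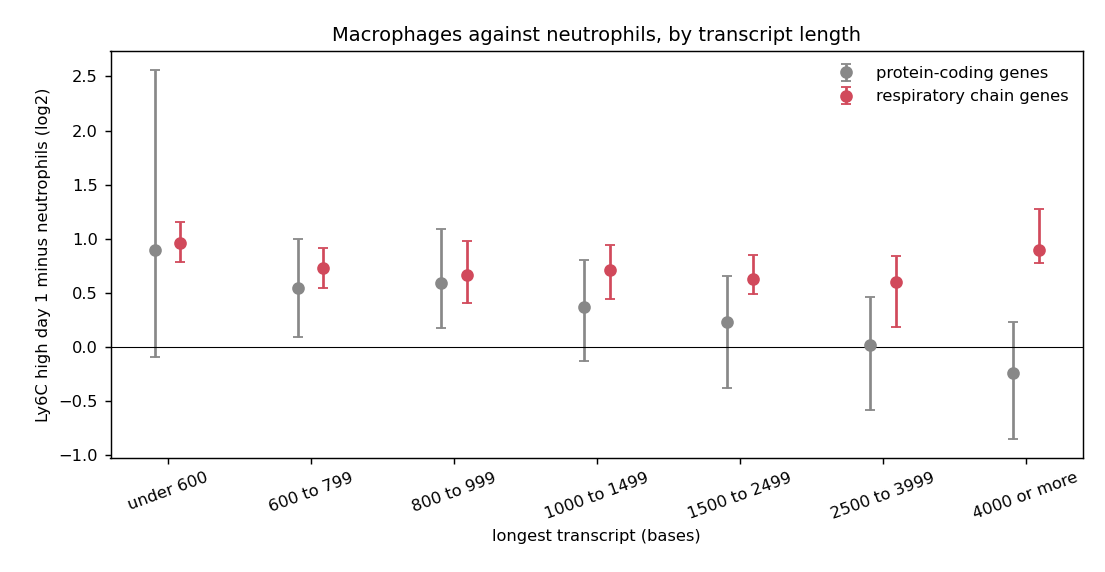
Difference of Ly6C high macrophages from neutrophils on day 1 (log2, vertical axis) by the length of the longest transcript (horizontal axis), as median and quartiles, for respiratory chain genes (red) and all protein-coding genes compared (grey). The grey medians go from 0.90 under 600 bases to -0.24 at 4000 bases or more, while the red medians lie between 0.60 and 0.96.

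Promoter windows, 67 in all, were matched for 62 of the 78 members, and a gene was counted where any of its windows held a motif on either strand, whether or not it overlapped another. The NRF1 letters GCNTGCGC were in 23 (37.1%), against 22.9% of 8284 protein-coding genes that reached a level of 5 and 9.95% of all 32851 windows. Those 23 genes and the other members had medians of -0.32 and -0.31 between days 2 and 4 in Ly6C low cells. The letters CCGGAAGT of ETS factors such as GABPA were in 4 (6.45% against 9.22% of those genes and 3.89% of all windows), TGACGTCA of CREB in 4 (6.45% against 3.62% and 1.79%), and TATAAA in 5 (8.06% against 8.64% and 13.6%). The window of Cox7a2l held none of the 6 motifs searched, and windows of Cox6a2, Ndufa4l2 and Atp5sl were not matched. A match here is a run of letters and no evidence of binding.

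The YY1 letters AAGATGGC were in 9 member promoters (14.5% against 5.42% of those genes and 2.75% of all windows). In 8 of them the letters lay on the coding strand after the start, at 22 to 38 bases. Anywhere on that strand in the 50 bases after the start, they were in 12.9% of members and 2.68% of the protein-coding genes, a strand and side chosen after the member sites were seen. The letters AAGATGGC also hold ATG, so that they can coincide with a start codon. The 6 sites with 8 bases on either side inside the window are shown because they share this strand and side, with the motif in capitals.
Ndufs7, chr10:80249465-80249488, plus strand: ccgaggccAAGATGGCggcgctgg
Ndufa3, chr7:3617387-3617410, plus strand: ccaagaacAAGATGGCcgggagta
Ndufa9, chr6:126849100-126849123, minus strand: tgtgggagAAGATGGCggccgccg
Ndufs6, chr13:73328434-73328457, minus strand: tcaccggcAAGATGGCggcggtgc
Ndufc1, chr3:51408918-51408941, minus strand: tgcggaacAAGATGGCgccgtccg
Atp5j2, chr5:145191503-145191526, minus strand: aggacttcAAGATGGCgtcactcg

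The letters TCAAGGTC of ESRRA, an orphan receptor that acts with the Ppargc1 coactivators, were in 3 member promoters (4.84% against 0.966% of those genes and 1.05% of all windows), shown because they are rare, with the place of the first base relative to the start.
Atp5g3, -51, chr2:73911359-73911388, minus strand: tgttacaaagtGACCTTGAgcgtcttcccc
Ndufb6, 18, chr4:40279385-40279414, minus strand: ttccaggcgccTCAAGGTCgctttgcggag
Sdhd, 37, chr9:50603800-50603823, minus strand: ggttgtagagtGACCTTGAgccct
In Ly6C low cells, the difference between days 2 and 4 was -0.64 for Atp5g3, -0.72 for Ndufb6 and -0.12 for Sdhd. With 3 genes no relation between motif and level can be read.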

How the data were processed

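RNA sequencing of 17 samples gave the deposited log2 values of normalised reads, in 1 column for each of 6 groups, which was read as the group's mean. The submitters' processing notes name Cufflinks 2.0.2, TopHat2 2.0.7 and the build mm10 but no step for them. How reads were counted and normalised is not given in the sources used here. Differences of the log2 values were computed with Python 3.11.15 and pandas 2.3.3 for genes at 5 or above in either group of a comparison, and differences of at least 1 were counted. No test across samples, SD or interval was possible. Depth is known only as the worth of a read, from the steps of the low values. The members, gene lists and rules were chosen with earlier results of these data known. Values in all 6 groups are given for core subunits, isoform pairs, the members furthest apart in a comparison and those furthest up and down per complex; other lists are given by up to 4 members. Some such members are given only by their difference. Classes, lengths and coordinates come from GENCODE M21 on GRCm38, in which 36308 gene identifiers (95.3%) were found, and promoter windows from RefSeq (GRCm38.p6). The values of 1 member are not reported here, though counts and medians include it. The scaling code was tested on simulated data. Alternatives were 2 pseudocounts, 2 filters, 2 rescalings and 4 choices of members.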

Additional observations from a re-analysis of the deposited data

How the results depend on the processing

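The main limit is 1 value per group. No paired analysis was possible because the table holds 1 column per group, and leaving out a replicate was not run for the same reason. Of 361 recomputed values for 37 results on the members under 10 settings, 335 moved by no more than the limits set (0.1 for a median, 1.5 times for a count or for the fold of a gene), 26 moved further and 0 with a main value of at least 0.1 changed sign. Not all of the 335 were free to move. Averaging rows leaves every value as it was, and a filter or choice of members leaves the difference of a single gene unchanged. The limit of 0.1 is also no smaller than several of the medians themselves. The tally is therefore no measure of how firm the results are. Outside the 37 results, the median of the biogenesis regulators between days 2 and 4 in Ly6C low cells went from 0.13 to -0.02 under quantile normalization. The cause was not tested beyond the construction of each setting. Between macrophages and neutrophils, quantile normalization gave a median of 0.54 and 5 members at least 2-fold higher, and 9 were left among members with a transcript of at least 1000 bases. For Ly6C high cells of day 4, the 4 members at least 2-fold higher than on day 2 or day 1 became 2 with a level of 5 in 2 groups, with subunits only, without tissue isoforms and with longer transcripts, and 7 against day 1 with no filter. The setting of subunits only left out Ndufa4l2, Atp5sl and Atp5l2. Under quantile normalization 1 member was 2-fold lower than on day 2 and 1 than on day 1. Median-ratio rescaling left 11 and 17 members above 0 in these comparisons. On day 2, no filter put 1 member 2-fold above and 2 members 2-fold below the Ly6C high cells. On day 4, the 2 members 2-fold lower in Ly6C low cells became 1 with subunits only and 0 with a level of 5 in 2 groups, without tissue isoforms or with longer transcripts. Between days 2 and 4 in Ly6C low cells, no filter gave 2 members 2-fold higher, and quantile normalization 1 lower. Ndufa4l2 differed by 3.26 with a pseudocount of 5 and 3.35 under quantile normalization, against 3.96. Averaging the rows of a symbol changed nothing, since no member has more than 1 row. Quantile normalization shifted the median of all genes by -0.14 between days 2 and 4 and by -0.15 between days 1 and 4 in Ly6C high cells and by -0.11 between neutrophils and macrophages. It took the share of higher genes among those 2-fold apart from 87.7% to 62%, from 81.6% to 56.9%, from 81.1% to 66.7% (Ly6C low, day 4 against day 2) and from 21.4% to 38.2% (subsets on day 4). Levels near 5 rest on few reads, which limits Cox7a1, Cox6a2 and Ndufa4l2 most.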
